A study of Mus musculus with 8 samples.

Results

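The genes described here encode 3 sets of transcription factors, the Krüppel-like factors (KLF), the SOX factors and a group of factors known from epithelia, measured in whole mouse uterus with and without Foxa2. Members were chosen by symbol, as every gene named Klf or Sox followed by a number, together with Elf3, Elf5, Ehf, Spdef, Grhl1, Grhl2, Grhl3, Ovol1 and Tfcp2l1. This gave 45 of the 19938 genes on the array, namely 17 Klf genes, 19 Sox genes and all 9 of the listed epithelial factors, and each was measured by 1 probe set. The controls were Pgr+/+ Foxa2+/+ females (n = 4), and the Foxa2-deleted group were PgrCre/+ Foxa2flox/flox females (n = 4), in which Cre recombinase is made from 1 allele of the progesterone receptor gene Pgr and so acts in cells that use that gene. Both groups were mated to vasectomised males and taken on day 3.5 of pseudopregnancy, with the plug counted as day 0.5, and no ages are given for them. Controls carried neither Cre nor floxed Foxa2, so the 1 disrupted Pgr allele, Cre and the loss of Foxa2 cannot be told apart.

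KLF proteins bind GC-rich and CACCC sequences through zinc fingers at their carboxyl end, and different members activate or repress transcription. SOX proteins bind the minor groove of DNA through an HMG box and are grouped from SOXA to SOXH by the likeness of that box. The epithelial factors belong to the ETS, grainyhead and OVO families and are known for keeping epithelial cells differentiated and joined to each other. In the uterus, KLF5 is needed in the luminal epithelium for implantation, KLF9 acts with the progesterone receptor, and SOX17 and SOX9 are made in the endometrial epithelium. FOXA2 itself marks the endometrial glands.

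Values are the deposited log2 intensities, on which a difference of 1 is a doubling. Differences are Foxa2-deleted minus control, fitted with limma over all 19938 genes, and a gene was called at an adjusted p under 0.05. Foxa2 read 8.61, 8.82, 8.74 and 8.73 in control replicates 1 to 4 and 8.22, 8.20, 8.21 and 8.21 in the deleted replicates. No array went against its label, since all deleted values lay below all control values (log2 change -0.51, SE 0.05, adjusted p = 0.0013, limma). Whether this probe set lies in the floxed region was not checked, and the table gives no probe positions. Whole tissue was measured, so fewer cells of a type and less RNA per cell cannot be told apart.

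Of the 45 factors, 3 rose and 3 fell. The epithelial factors Elf3 and Grhl3 and the SOX factor Sox7 were higher in deleted uteri, and Klf10, Klf2 and Klf8 were lower. These 6 make up 13.3% of the members, against 11.1% of all genes called in either direction, so the share is near the background. By direction, 6.67% of the members were called higher and 6.67% lower, against 4.5% and 6.58% of all genes. At an unadjusted p under 0.05 (limma) there were 16 of the 45 members and 6272 of all 19938 genes. The median change was 0.03 over the members and 0.01 over all genes. In 9 members the 4 values of one genotype all lay beyond the 4 of the other (20% of the members, against 21.1% of all genes). Over all genes 898 were called higher and 1311 lower, and with quantile normalisation applied again the split was 1011 to 939. It was 1082 to 982 with each array centred on its median and 960 to 949 with cyclic loess. These scalings moved the median of all genes from 0.01 to at most 0.04.

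**Figure D1:**
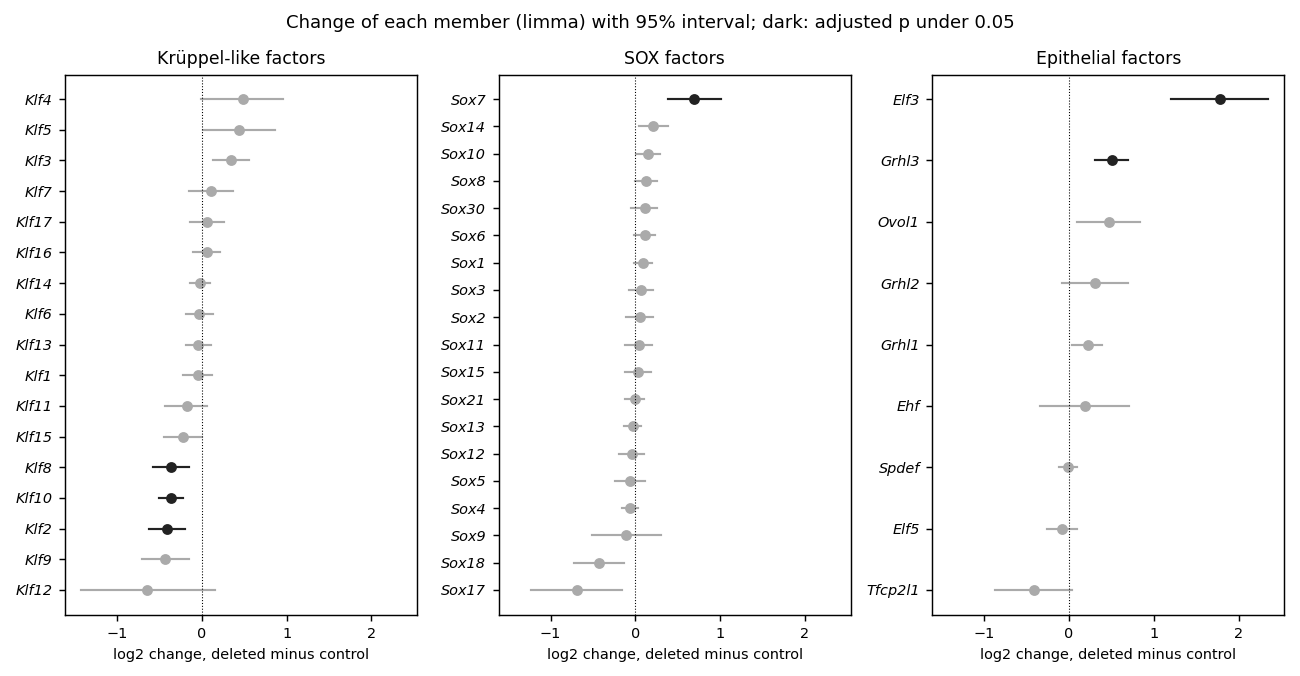
Log2 change of each of the 45 factors (horizontal axis, Foxa2-deleted minus control) with its 95% interval from limma, ordered by size within the KLF, SOX and epithelial sets. Dark points mark the 6 factors called at an adjusted p under 0.05, of which Elf3 at 1.78 lies farthest from 0.

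RefSeq start-site windows (GRCm38.p6, 250 bases before to 50 after the start) were found for 32 of the 45 members. They are shown for the called members with a window, 2 higher and 2 lower, so that the 2 directions can be read side by side. Each is written 5′ to 3′ on the gene's strand, and capitals mark CACCC on either strand (GGGTG where it lies on the other strand), the core that KLF proteins bind. The Elf3 window is chr1:135258423-135258722, minus strand, and the Grhl3 window is chr4:135573583-135573882, minus strand. The Klf2 window is chr8:72318812-72319111, plus strand. The Klf8 windows are chrX:153237498-153237797, plus strand, and chrX:153359363-153359662, plus strand.
Elf3: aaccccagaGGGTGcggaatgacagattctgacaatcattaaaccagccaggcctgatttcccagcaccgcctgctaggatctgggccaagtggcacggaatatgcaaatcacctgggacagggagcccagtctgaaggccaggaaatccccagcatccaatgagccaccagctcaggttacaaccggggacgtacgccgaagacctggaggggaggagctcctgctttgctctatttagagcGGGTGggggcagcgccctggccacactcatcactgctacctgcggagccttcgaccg
Grhl3: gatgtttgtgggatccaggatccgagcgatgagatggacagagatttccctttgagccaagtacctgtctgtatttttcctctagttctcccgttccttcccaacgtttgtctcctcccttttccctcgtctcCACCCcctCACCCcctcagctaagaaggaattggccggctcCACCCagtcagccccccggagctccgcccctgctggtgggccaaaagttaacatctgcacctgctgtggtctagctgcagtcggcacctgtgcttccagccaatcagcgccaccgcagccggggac
Klf2: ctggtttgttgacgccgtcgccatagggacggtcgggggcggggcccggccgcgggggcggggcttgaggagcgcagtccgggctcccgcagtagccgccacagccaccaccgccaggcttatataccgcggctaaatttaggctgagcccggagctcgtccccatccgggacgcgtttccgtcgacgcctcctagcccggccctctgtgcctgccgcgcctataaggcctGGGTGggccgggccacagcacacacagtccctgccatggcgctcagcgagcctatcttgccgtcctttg
Klf8, first window: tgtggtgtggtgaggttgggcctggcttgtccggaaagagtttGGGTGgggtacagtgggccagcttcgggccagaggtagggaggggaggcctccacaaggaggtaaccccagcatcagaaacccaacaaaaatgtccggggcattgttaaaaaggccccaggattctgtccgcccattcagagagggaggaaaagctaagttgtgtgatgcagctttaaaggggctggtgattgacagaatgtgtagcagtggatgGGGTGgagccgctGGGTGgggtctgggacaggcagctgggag
Klf8, second window: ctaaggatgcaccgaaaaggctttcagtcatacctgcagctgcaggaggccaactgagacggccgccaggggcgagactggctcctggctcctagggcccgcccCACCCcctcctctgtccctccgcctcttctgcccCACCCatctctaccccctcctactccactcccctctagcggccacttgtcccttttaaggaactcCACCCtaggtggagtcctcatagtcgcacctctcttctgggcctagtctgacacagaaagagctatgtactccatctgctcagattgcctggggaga

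CACCC occurred 2 times in the Elf3 window, 3 times in that of Grhl3, 1 time in that of Klf2 and 3 times in each Klf8 window. It was as common elsewhere, in 57.5% of all 32851 windows and 57.5% of the 40 windows of members. The forkhead core TGTTTAC, searched on both strands, was in none of the 5 printed windows, in 3.65% of all windows and, among members, in those of Klf9 and Sox12. TATTTAC, the other form searched, was in 3.04% of all windows and among members in that of Spdef. The SOX core ACAAT, whose matches can share bases with a forkhead match, was in 31% of all windows and 32.5% of member windows, and among those printed it occurred 1 time in the Elf3 window and 1 time in the first Klf8 window. These are matches of letters in short windows, not measured binding.

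Among the 9 epithelial factors, 2 rose, none fell and 7 did not pass (22.2%, against 11.1% of all genes), with a median change of 0.22. Elf3, an ETS factor of simple and secretory epithelia, read 9.23, 9.17, 9.39 and 9.14 in the controls and 11.15, 10.37, 11.77 and 10.74 in deleted replicates 1 to 4. Every deleted uterus lay above every control, and replicate 3 was highest. Elf3 rose 3.42-fold (log2 change 1.78, SE 0.25, adjusted p = 0.00672, limma), the largest change among the 45 factors, and it was called without any 1 of the 8 arrays, with adjusted p up to 0.0307.

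Grhl3, a grainyhead factor of surface epithelia and barrier formation, read 7.64, 7.42, 7.48 and 7.52 in the controls and 8.05, 7.80, 8.20 and 8.04 in the deleted replicates. The groups did not overlap, and the order of the deleted uteri was that of Elf3, with replicate 3 highest, then 1, 4 and 2. Grhl3 rose 1.42-fold (log2 change 0.51, SE 0.09, adjusted p = 0.0123, limma), and its call also held without any 1 array (adjusted p up to 0.0467). Its paralogs did not pass. Grhl1 had a difference of 0.22 (95% interval 0.04 to 0.39, adjusted p = 0.103) and Grhl2, which maintains epithelial junction genes, one of 0.31 (95% interval -0.08 to 0.70, adjusted p = 0.242).

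Ovol1, a zinc finger factor that limits proliferation during epithelial differentiation, read 7.90 to 8.10 in the controls and 8.09, 8.34, 8.97 and 8.57 in deleted replicates 1 to 4. Deleted replicate 1 fell inside the control range. The change of 0.47 (SE 0.16, adjusted p = 0.0894, limma) did not pass, and it passed without deleted replicate 1 (log2 change 0.61, adjusted p = 0.0462). Without any other single array it did not pass (adjusted p up to 0.182, limma).

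The ETS relatives of Elf3 gave smaller values. Ehf, of glandular and mucosal epithelia, had a difference of 0.19 (95% interval -0.34 to 0.71), and its sign turned without deleted replicate 3 (-0.05). Elf5, a factor of mammary and trophoblast cells, had a difference of -0.08 (95% interval -0.26 to 0.10), and Spdef, a factor of goblet cells, one of -0.01 (95% interval -0.12 to 0.10). Neither of these last intervals reaches a 1.5-fold change, while that of Ehf does. Tfcp2l1, a CP2 factor of the kidney duct and of early embryonic cells, ran from 10.48 to 10.71 in the controls. Its deleted values were 9.50, 10.52, 10.38 and 10.41, so that replicate 1 stood apart, and the change of -0.41 did not pass (SE 0.20, adjusted p = 0.194, limma).

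Epithelial markers did not all go one way. Of 12 pan-epithelial markers 5 rose, none fell and 7 did not pass (41.7% called, against 11.1% of all genes). Their mean level was 9.91 to 10.09 on control arrays and 10.31 to 11.21 on deleted arrays. Among those that rose were the keratin genes Krt19 (1.86, SE 0.22) and Krt8 (0.93, SE 0.17), and Rab25 (0.87, SE 0.19), a regulator of apical vesicle traffic. Among those that did not pass were the keratin gene Krt18 (0.11) and the tight junction genes Cldn3 (-0.47) and Cldn4 (-0.11). Of 5 measured luminal markers 3 rose, Ltf (4.18), Muc1 (1.57) and Wnt7a (1.09). The signalling gene Ihh fell (-0.75, adjusted p = 0.0254, limma), and Calb1 did not pass (-0.60). The luminal list (80% called, against 11.1% of all genes) had a mean level of 9.30 to 9.60 in controls and 10.25 to 10.84 in deleted uteri. Ltf, with the largest change of the list, weighs most in this mean. Of 7 gland markers, Foxa2 included, 5 fell and none rose (71.4% called, against 11.1% of all genes). Their mean level was 8.47 to 9.18 in controls and 6.99 to 7.30 in deleted uteri. No value in the table is at 0, its lowest being 2.73, and no detection call comes with it. The part of cell numbers in the change of Elf3 and Grhl3 was not tested.

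**Figure D2:**
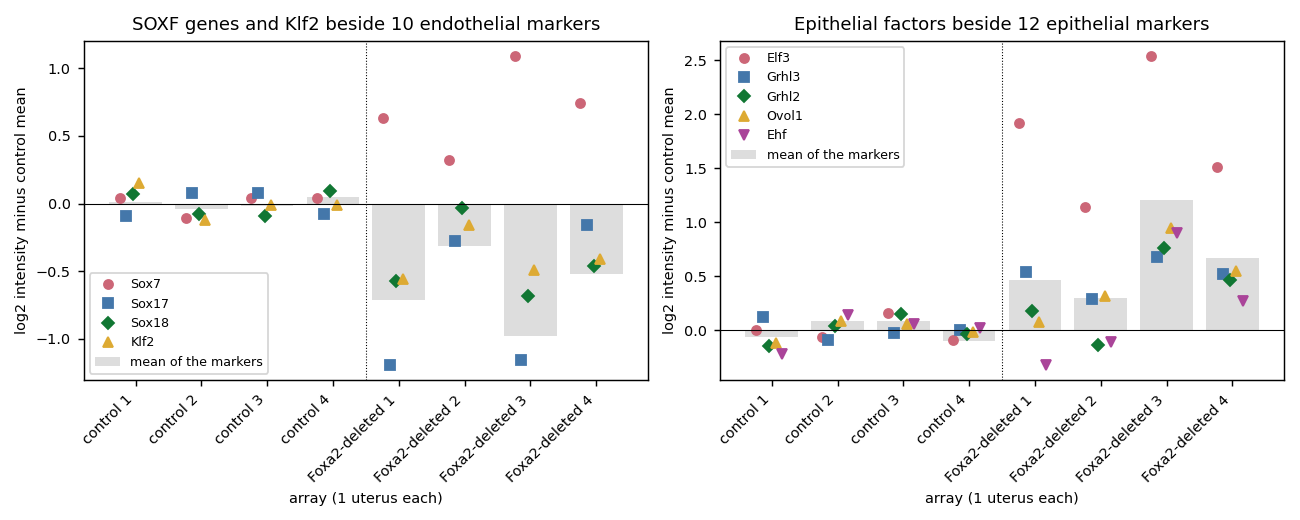
Each array's log2 intensity minus the control mean for SOXF genes and Klf2 (left) and for 5 epithelial factors (right), with grey bars for the mean of 10 endothelial and 12 epithelial markers. Sox7 lies above 0 on the 4 deleted arrays while the endothelial mean lies between -0.31 and -0.98, and Elf3 lies above the epithelial mean on each deleted array.

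Related factors were taken by family. Ovol2, Ovol3, Tfcp2 and Ubp1, the remaining OVO and CP2 genes, had 0 of 4 called and 0 at an unadjusted p under 0.05 (limma), with Ubp1 (-0.07) and Tfcp2 (-0.08) nearest. Of 7 repressors that oppose the epithelial state, the ZEB, SNAI and TWIST genes, 0 were called at an adjusted p under 0.05 (limma). At an unadjusted p under 0.05 there were 2, against 6272 of all 19938 genes. These were Snai1 (-0.42, adjusted p = 0.111, limma) and Zeb1 (-0.21, adjusted p = 0.152, limma). Of 21 measured ETS genes outside the epithelial subgroup, 4 fell and 1 rose (23.8%, against 11.1% of all genes). Fli1 (-0.46), Erg (-0.50) and Ets1 (-0.30), all known from endothelial and blood cells, were lower, and so was Gabpa (-0.21, adjusted p = 0.0471, limma). Etv2, a factor of early blood vessel formation, was higher (0.23, adjusted p = 0.0402, limma).

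Of the 17 KLF genes 3 were called, all of them lower (17.6% called, against 11.1% of all genes). The median change was -0.04, and 11 of the 17 had a change below 0. They are taken here by the partner proteins they are known to use.

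The repressors that bind the corepressor CtBP are Klf3, Klf8 and Klf12. Klf8, known for promoting proliferation and loss of epithelial character in cultured cells, read 8.43, 8.41, 8.38 and 8.44 in the controls and 7.99, 8.24, 7.80 and 8.19 in the deleted replicates. The controls lay close together, from 8.38 to 8.44, and above all deleted uteri. Klf8 fell 1.28-fold (log2 change -0.36, SE 0.09, adjusted p = 0.0397, limma). Leaving out deleted replicate 1, or any single control, ended the Klf8 call (adjusted p up to 0.107), and so did the replicate number as a block (adjusted p = 0.0589).

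Klf3, which restrains Klf1 target genes, moved the other way. Its controls read 10.14, 10.07, 10.04 and 10.05, and its deleted uteri 10.44, 10.18, 10.69 and 10.37, with no overlap. The change of 0.34 (SE 0.10, adjusted p = 0.052, limma) did not pass. It passed under 3 other scalings, with adjusted p from 0.0368 to 0.0474, with array weights, and with the dimmer genes left out. It did not pass with the replicate number as a block (adjusted p = 0.0811, limma). Of single arrays left out, only deleted replicate 2 let Klf3 pass, and the others gave an adjusted p up to 0.129. Klf12 had the widest spread of the 45 factors, with deleted values of 8.06, 8.70, 7.40 and 9.33 against 8.89 to 9.13 in the controls. Deleted replicate 4 lay above all controls and replicates 1, 2 and 3 below them. Its change of -0.64 did not pass (SE 0.35, adjusted p = 0.236), and did so without deleted replicate 4 (-0.96, adjusted p = 0.0453). Without any other single array Klf12 did not pass (adjusted p up to 0.433, limma).

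The repressors that recruit SIN3A are Klf9, Klf10, Klf11, Klf13, Klf14 and Klf16, of which 1 fell and 5 did not pass. Their share called was 16.7%, against 11.1% of all genes. Klf10, an early target of TGF-beta, read 9.72, 9.50, 9.60 and 9.73 in the controls and 9.20, 9.33, 9.26 and 9.31 in the deleted replicates. Its deleted values spread less than those of any other called member (SD 0.06, n = 4). Klf10 fell 1.29-fold (log2 change -0.36, SE 0.06, adjusted p = 0.0129, limma), and it was the only called KLF gene whose call held without any 1 of the 8 arrays (adjusted p up to 0.0475).

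Klf9, a partner of the progesterone receptor in the endometrium, read 11.03, 10.92, 10.89 and 11.04 in the controls and 10.62, 10.77, 10.15 and 10.63 in the deleted replicates. No deleted uterus reached the control range, and replicate 3 was lowest. The change of -0.43 (SE 0.12, adjusted p = 0.0549, limma) did not pass. Leaving out deleted replicate 2 gave an adjusted p of 0.0276, and leaving out replicate 3 one of 0.0257. Without any other single array Klf9 did not pass (adjusted p up to 0.137, limma). Klf11, also induced by TGF-beta, had a difference of -0.18 (95% interval -0.43 to 0.06). Klf13, Klf14 and Klf16 had differences of -0.04, -0.02 and 0.06, and none of their 95% intervals went beyond 0.22 in size. Pgr itself read 11.15 to 11.27 in the controls and 11.35 to 11.81 in the deleted uteri (log2 change 0.37, SE 0.10, adjusted p = 0.0428, limma), with both alleles intact in the controls alone. The Pgr call was not stable. It held without deleted replicate 2 or 3 only, any other single array left out gave an adjusted p up to 0.105, and it also ended with quantile normalisation again (adjusted p = 0.0505) and with the replicate number as a block (adjusted p = 0.0777).

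The activators are Klf1, Klf2, Klf4, Klf5, Klf6 and Klf7, of which 1 fell and 5 did not pass. Their share called was 16.7%, against 11.1% of all genes. Klf2, which keeps endothelial cells and naive T cells quiescent, read 9.62, 9.35, 9.46 and 9.46 in the controls and 8.91, 9.31, 8.98 and 9.06 in the deleted replicates. The groups did not overlap, and the gap between control replicate 2 and deleted replicate 2 was small. Klf2 fell 1.33-fold (log2 change -0.41, SE 0.09, adjusted p = 0.0286, limma). Leaving out deleted replicate 1 or 3, or any single control, ended the Klf2 call (adjusted p up to 0.0802), and so did the replicate number as a block (adjusted p = 0.0817).

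Of 10 endothelial markers, Erg among them, 8 fell and none rose (80% called, against 11.1% of all genes). Their mean level was 10.53 to 10.62 on control arrays and 9.59 to 10.25 on deleted arrays. The adhesion gene Pecam1 (-0.66, SE 0.10) and the receptor gene Tie1 (-0.70, SE 0.11) were among them. Of 8 NK and T cell markers 5 fell and none rose (62.5% called, against 11.1% of all genes). The 5 were the NK receptor genes Ncr1 (-1.23), Klrb1c (-1.17) and Klrk1 (-0.85) and the cytotoxic granule genes Gzmb (-1.84) and Prf1 (-0.62). The T cell genes Cd3e (0.17) and Cd8a (0.16) and Thy1 (-0.34) did not pass. The list had a mean level of 8.82 to 8.99 in controls and 8.02 to 8.46 in deleted uteri. The part of endothelial or NK cells in the lower Klf2 was not tested. Among the other cell types, smooth muscle had 1 of 7 markers higher (14.3%, against 11.1% of all genes called), the actin gene Actg2 (0.51). Stroma, macrophages and ovary had 0 of 7, 0 of 7 and 0 of 6 called (limma, with 3, 1 and 0 at an unadjusted p under 0.05). Over all 19938 genes 6272 had such an unadjusted p.

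Klf5, an activator of proliferation in epithelia, read 9.68 to 9.94 in the controls and 9.79, 10.01, 10.72 and 10.51 in deleted replicates 1 to 4. Klf4, a factor of differentiating surface epithelia and of endothelium, read 9.30 to 9.51 in the controls and 9.92, 9.56, 10.59 and 9.50 in the deleted replicates. In both genes deleted replicate 3 was highest and 1 deleted uterus lay inside the control range. The changes of 0.44 (95% interval 0.01 to 0.86, adjusted p = 0.148) and 0.48 (95% interval -0.01 to 0.96, adjusted p = 0.164) did not pass. Klf6, an early response gene, and Klf7, known from neurons and fat cells, had differences of -0.03 and 0.11. Klf1, the factor of red cell precursors, had a difference of -0.05 (95% interval -0.22 to 0.12), and 0 of the 3 measured erythroid markers were called (limma, 0 at an unadjusted p under 0.05). With a control mean of 7.35, Klf1 was among the dimmest 25% of genes, whose changes can be understated.

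Outside these groups, Klf15, a regulator of metabolism that also limits the estrogen response of uterine epithelium, had a difference of -0.22 (95% interval -0.44 to 0.00, adjusted p = 0.153). Klf17, a factor of germ cells and early embryos, had a difference of 0.06. Its control mean of 6.42 was also among the dimmest 25% of genes. Among the nearest relatives of the KLF genes, the SP factors, 0 of 8 measured were called (limma), with a median change of 0.03. At an unadjusted p under 0.05 there was 1, Sp6 (0.17, adjusted p = 0.155, limma), against 6272 of all 19938 genes. Of 12 corepressors, coactivators and ubiquitin ligases that act on KLF proteins 1 fell and none rose (8.33%, against 11.1% of all genes). This was Fbxw7, a ligase subunit that marks KLF5 for breakdown (-0.33, SE 0.06, adjusted p = 0.0141, limma), while Ctbp1 and Ctbp2, the partners of Klf3, Klf8 and Klf12, had differences of 0.03 and 0.07 and did not pass.

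**Figure D3:**
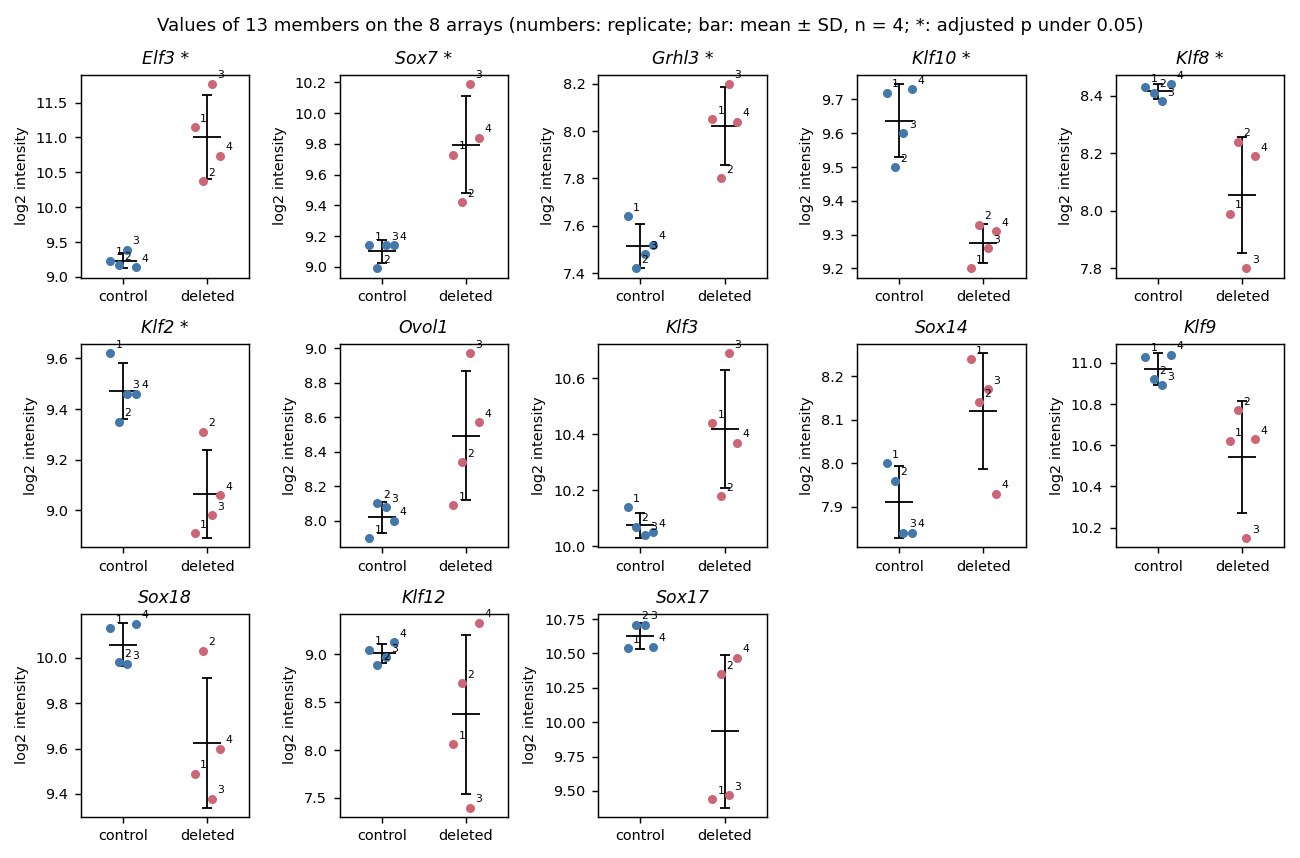
Log2 intensity (vertical axes, each on its own scale) of 13 factors on the 4 control and 4 Foxa2-deleted arrays, with points numbered by replicate and bars for the mean ± SD (n = 4). Asterisks mark the 6 called factors, and in each of these 6 the 4 deleted points lie on one side of the 4 control points with deleted replicate 2 nearest to the controls.

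Of the 19 SOX genes 1 was called, and it was higher (5.26% called, against 11.1% of all genes). The median change was 0.04. The 3 largest changes all lay in SOXF, the group of Sox7, Sox17 and Sox18, which is known for building blood and lymph vessels.

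Sox7 read 9.14, 8.99, 9.14 and 9.14 in the controls and 9.73, 9.42, 10.19 and 9.84 in the deleted replicates. All deleted uteri lay above all controls. Sox7 rose 1.62-fold (log2 change 0.69, SE 0.14, adjusted p = 0.0203, limma). Leaving out control replicate 2, 3 or 4 ended the Sox7 call, and the adjusted p then reached 0.0681.

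Sox17, made in arterial endothelium and in the epithelium of the uterus, read 10.54, 10.71, 10.71 and 10.55 in the controls and 9.44, 10.35, 9.47 and 10.47 in the deleted replicates. Deleted replicates 1 and 3 were low, and replicates 2 and 4 lay just under the control range. The change of -0.69 (SE 0.23, adjusted p = 0.0852, limma) did not pass. Leaving out deleted replicate 2 gave an adjusted p of 0.0484, and leaving out replicate 4 one of 0.0338. Without any other single array Sox17 did not pass (adjusted p up to 0.183, limma). Sox18, of blood and lymph endothelium, read 10.13, 9.98, 9.97 and 10.15 in the controls and 9.49, 10.03, 9.38 and 9.60 in the deleted replicates. Deleted replicate 2 lay among the controls and the others below them. Its change of -0.43 (SE 0.13, adjusted p = 0.0629, limma) did not pass, and without deleted replicate 2 it was -0.57 (adjusted p = 0.00283). Without any other single array Sox18 did not pass (adjusted p up to 0.153, limma).

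The direction of Sox7 was thus opposite to that of the 10 endothelial markers, all of which had changes below 0 (from -0.91 to -0.33), and to the values of Sox17 and Sox18. The difference between the change of Sox7 and those of the other SOXF genes was not tested. On the deleted arrays the endothelial mean lay lowest on replicate 3 (-0.98 from the control mean), followed by replicates 1 (-0.71), 4 (-0.52) and 2 (-0.31). Sox18 followed the same order, while Sox17 had replicates 1 and 3 low and 4 highest. On deleted replicates 1 to 4 Sox7 lay 0.63, 0.32, 1.09 and 0.74 above its control mean. The pan-epithelial mean lay 0.46, 0.30, 1.21 and 0.67 above its own, with the arrays in the order of Sox7. The part of epithelial or endothelial cells in the change of Sox7 was not tested.

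In SOXE, Sox9, a factor of gland and duct epithelium, read 9.11, 9.08, 9.03 and 9.55 in the controls and 9.20, 8.82, 9.54 and 8.79 in the deleted replicates. The groups overlapped widely, and the change of -0.11 (95% interval -0.51 to 0.30, adjusted p = 0.714) did not pass, with an interval that spans 0. Sox8 and Sox10, of neural crest and glia, had differences of 0.13 and 0.15 and did not pass. Of 6 measured Schwann cell markers 1, the myelin gene Mbp, rose (0.24, adjusted p = 0.0427, limma). That is 16.7% of the list, against 11.1% of all genes.

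In SOXB, Sox1, Sox2 and Sox3, which keep neural and stem cells undifferentiated, had differences of 0.09, 0.05 and 0.07, and their relatives Sox14 and Sox21 had 0.21 and -0.01. None passed. Sox14 came nearest (SE 0.07, adjusted p = 0.0954, limma), and read 8.24, 8.14, 8.17 and 7.93 in the deleted replicates. Replicate 4 lay inside the control range, and without it the adjusted p was 0.0261. Without any other single array Sox14 did not pass (adjusted p up to 0.215, limma). In SOXC, Sox4, Sox11 and Sox12, known from progenitor cells, had differences of -0.06, 0.04 and -0.04. In SOXD, Sox5, Sox6 and Sox13, which lack an activation domain, had differences of -0.06, 0.11 and -0.03. Sox15 and Sox30, the latter a factor of male germ cells, had differences of 0.03 and 0.11. None of the 95% intervals of these 8 genes went beyond 0.26 in size. Sox2, Sox11 and Sox30, at control means of 6.72, 6.76 and 7.22, were among the dimmest 25% of genes. Changes of such genes can be understated. Of 10 measured partners of SOX proteins and nuclear factors of the WNT pathway, 1 rose and none fell (10%, against 11.1% of all genes). This was Bcl9, a coactivator that binds beta-catenin (0.65, SE 0.15, adjusted p = 0.0315, limma), while Lef1 had a change of -1.02 that did not pass (adjusted p = 0.0687).

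**Figure D4:**
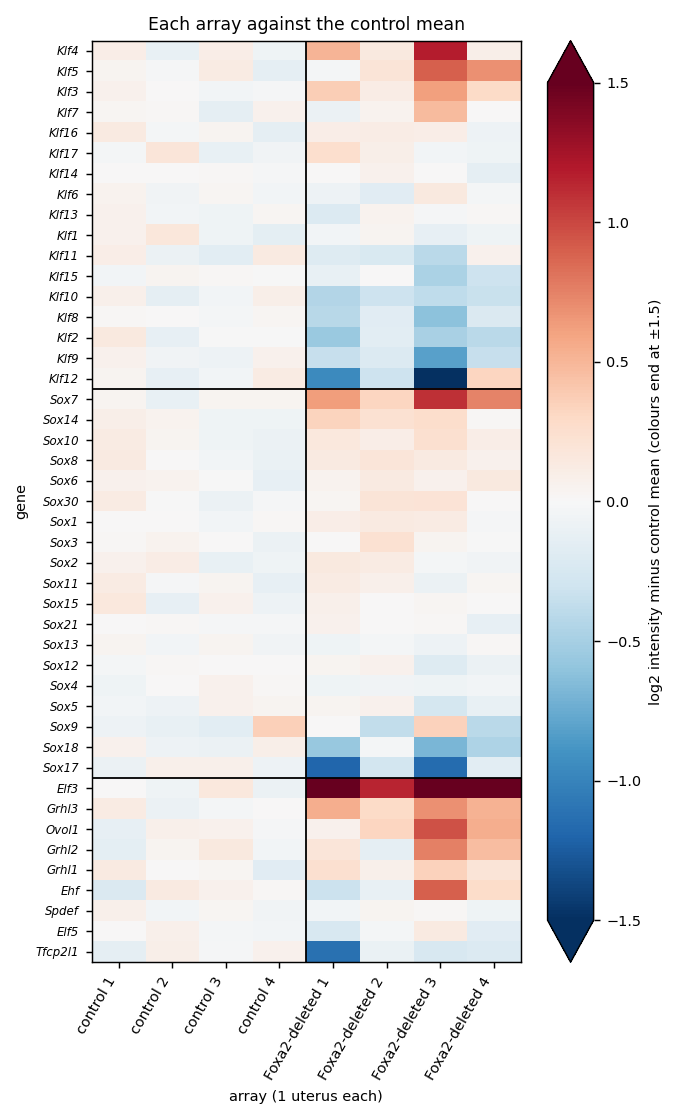
Log2 intensity of the 45 factors (rows, by set and by change) on the 8 arrays (columns), shown as the difference from the control mean, with red above and blue below it and colours ending at ±1.5. Deleted replicate 3 shows the deepest colour in rows such as Klf4 (10.59) and Klf12 (7.40), and among the controls replicate 4 stands out for Sox9 (9.55). In the Elf3 row deleted replicates 1, 3 and 4 all lie past the end of the colours, at 1.92, 2.54 and 1.51.

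The deleted uteri differed among themselves more than the controls did. The SD was larger in the deleted group in 32 of the 45 factors (71.1%), against 70.3% of all genes. By set this held for 14 of 17 KLF genes, 11 of 19 SOX genes and 7 of 9 epithelial factors. The median SD went from 0.10 in controls to 0.37 in deleted uteri for the epithelial factors, from 0.10 to 0.19 for the KLF genes and from 0.09 to 0.10 for the SOX genes, against 0.07 and 0.10 over all genes.

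In 13 factors, the 6 called and 7 more with an adjusted p under 0.1 or a change of at least 1.5-fold, the deleted arrays were ranked by how far they lay from the control mean in the direction of the change. The 13 were picked by their own change, and the arrays were not ranked in this way over all genes. Replicate 3 was farthest in 9 of the 13 and replicate 1 in 4. Replicate 2 was nearest in 9, replicate 4 in 3 and replicate 1 in 1. In all 6 called factors replicate 2 was nearest. Without it 6 factors were called lower in place of 3, and Klf9, Sox17 and Sox18 were among them. Over all genes 1777 were then called lower in place of 1311. In the order of the deleted arrays, with replicate 3 farthest and replicate 2 nearest, Elf3 and Grhl3 matched the mean of the endothelial markers, whose sign is opposite. The pan-epithelial mean lay at 0.46, 0.30, 1.21 and 0.67 on deleted replicates 1 to 4, so replicates 3 and 2 were its ends as well.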

How the data were processed

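RNA from the whole uterus of 8 mice, 4 per genotype, was measured on 1 Affymetrix whole-transcript array each, from 150 ng of total RNA, per the labels' protocols. The deposited values are log2 intensities made by the authors with RMA, which corrects background, normalises arrays and summarises probe sets, per the submitters' processing notes, which also name limma. No source used here gives versions or a genome build. The values carry no detection call, and changes of dim genes can be understated.

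Probe sets with 1 symbol in GEO's platform annotation (21789 of 35556) were used, and a gene with several was represented by the one with the highest mean. Array medians ran from 8.25 to 8.32; precision is limited by 4 arrays per group. Genotypes were compared over 19938 genes with limma 3.58.1 (lmFit, eBayes; R 4.3.3) and Benjamini-Hochberg adjustment, and the steps were tested on simulated data. The labels call replicates biological and give no batch. The members, subgroups and marker lists were chosen with earlier results of these data known. Every member is named, with values per array for those called, past 1.5-fold or with adjusted p under 0.1, and for some of interest chosen after their values were seen (Klf4, Klf5, Sox9, Tfcp2l1). Of each list up to 4 called genes, or the 2 with the smallest p, could be named. Calb1, Cd3e, Cd8a, Cldn3, Cldn4, Ctbp1, Ctbp2, Gabpa, Krt18, Lef1, Ovol2, Ovol3, Prf1 and Thy1 are named outside this rule. Alternatives were 3 scalings, 2 filters on dim genes, 2 other choices of probe set, a trended prior, array weights, a replicate block and leaving out each array.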

Additional observations from a re-analysis of the deposited data

Results flagged for a closer look

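Within each genotype the highest or lowest of the 4 values was compared with the range of the group, in 90 groups of 4, and 5 stood apart by Dixon's criterion. Chance alone gives about 1 in 20 groups, so 5 of 90 is near that rate. Tfcp2l1 in Foxa2-deleted replicate 1 read 9.50, with the nearest other deleted value at 10.38. Klf16 in Foxa2-deleted replicate 4 read 9.46 against 9.64 or more on the others. Sox7 in control replicate 2 read 8.99, below the 3 other controls at 9.14. The Sox7 call was lost without this replicate, and also without control replicate 3 or 4. Sox3 in Foxa2-deleted replicate 2 read 9.00 against 8.80 or less on the others. Sox9 in control replicate 4 read 9.55, with the nearest control at 9.11.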

How the results depend on the processing

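Of the 6 calls, Elf3, Grhl3 and Klf10 held without any 1 of the 8 arrays, and Klf2, Klf8 and Sox7 did not. Over the 45 members and Foxa2 and Pgr, 748 of the recomputed changes kept their direction and side of the threshold, 24 lost it, 18 gained it and 32 turned sign. Leaving out each array in turn gave 556 to 3059 genes called in place of 2209, 1 to 6 members called lower in place of 3, 1 to 5 KLF genes in place of 3 and 0 to 3 SOX genes in place of 1. The lowest count over all genes came without control replicate 4 and the highest without deleted replicate 4. With array weights 6 members were called lower, 5 KLF genes and 3 SOX genes. Calls over all genes rose as well, to 3132 in place of 2209, with 1781 lower in place of 1311. With the lower 50% of genes left out 1 epithelial factor was called, since Grhl3 was not among the genes tested. The filters give no value for the dimmer members, and other choices of probe set leave the members' values as they are.

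Same-numbered arrays did not deviate together (correlations 0.06, -0.05, -0.03 and -0.01). The labels name no pairing of the uteri, and correlations this small cannot exclude one. With the replicate number as a block 1062 genes were called, 1 member lower and 1 KLF gene.

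Changes near 0 that were not called turned sign. With quantile normalisation again Spdef was 0.02, Klf14 0.03, Sox12 0.00 and Sox21 0.02. With arrays centred on the median Spdef was 0.02, Klf6 0.00, Klf14 0.01 and Sox21 0.02. With cyclic loess Spdef was 0.02, Klf13 0.01, Klf6 0.01, Klf14 0.03, Sox13 0.01, Sox12 0.01 and Sox21 0.00. With array weights Sox21 was 0.00. Leaving out each array gave -0.05 to 0.35 for Ehf, -0.03 to 0.02 for Spdef, -0.01 to 0.18 for Klf7, 0.00 to 0.12 for Klf17, -0.10 to 0.01 for Klf1, -0.07 to 0.02 for Klf13, -0.09 to 0.02 for Klf6, -0.05 to 0.02 for Klf14, -0.08 to 0.00 for Sox12, -0.26 to 0.01 for Sox9, -0.01 to 0.08 for Sox11, -0.01 to 0.08 for Sox15 and -0.03 to 0.03 for Sox21. The cause was not tested.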
